A study of Homo sapiens with 9 samples.

Results

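Lysosomal hydrolases, their activators, the membrane proteins and proton pump of the lysosome and the transcription factors that govern them were followed in U87, GSCs and Diff cells. The set held 41 genes chosen by symbol for their known role, out of 60606 genes in the deposited table. It comprised 9 cathepsins, 9 glycosidases, 7 other hydrolases and activators, 7 membrane proteins, 5 parts of the V-ATPase, and 4 genes grouped as regulators, namely TFEB, TFE3, MITF and the autophagy receptor SQSTM1. The rule itself used no measured value.

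The lysosome is the acidic compartment in which proteins, glycans and lipids taken up by endocytosis or delivered by autophagy are broken down. Its hydrolases are made in the endoplasmic reticulum, most are carried to the lysosome by mannose 6-phosphate receptors, and they work at the low pH that the V-ATPase maintains. TFEB, TFE3 and MITF are related transcription factors that bind a short palindromic element in the promoters of many lysosomal genes, and their entry into the nucleus is held back when mTORC1 is active on the lysosomal surface. In glioma, cathepsins are best known for their part in the breakdown of matrix during invasion.

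The study asked how radioresistant glioblastoma cells differ from their parental line, and RNA of each of 3 cell types was sequenced in 3 libraries. U87 is the parental human glioblastoma line, kept in DMEM with fetal bovine serum. GSCs are stem-like cells derived from U87 that were irradiated repeatedly and grown without serum, in medium with B27, EGF and bFGF. Diff cells were obtained from the irradiated GSCs by transfer to DMEM with serum, and were grown from cells selected out of clonal communities. All 3 groups go back to U87, GSCs and Diff cells share the irradiation, and U87 and Diff cells share the medium. Irradiation and derivation as stem cells therefore cannot be told apart in either comparison with U87. The culture medium adds to this for GSCs, and differentiation and the selection out of clonal communities for Diff cells. Medium, differentiation and this selection cannot be told apart between Diff cells and GSCs.

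Values were deposited as log2(TPM + 1), where TPM, transcripts per 1000000, is adjusted for the length of each gene and the size of each library, and levels are given here as TPM. The TPM of each library sum to the same total, so the read depth behind a value is unknown and the spread between the 3 libraries is the only measure of error. A general statement of the study on statistics speaks of biological replicates without naming the RNA libraries, and whether the libraries of a group came from separate cultures is not given in the sources used here. The p-values measure the spread between these libraries, which may be technical. Sources disagree on the preparation: Trizol with oligo(dT) beads in the methods text, Magzol with removal of ribosomal RNA in the sample records. Of 7 glioma and neural stem markers, VIM was at mean levels of 1640 TPM in U87, 1214 TPM in GSCs and 616 TPM in Diff cells, and CD44 and S100A10 also exceeded 100 TPM in each group. NES, a stem cell marker, was at means of 33.03 TPM in U87, 22.6 TPM in GSCs and 13.5 TPM in Diff cells, and the glial marker GFAP at 2.29, 0.81 and 0.91 TPM. SOX2, a defining stem cell factor, was at a mean of 0.88 TPM in GSCs, 0.04 TPM in U87 and 0.15 TPM in Diff cells. The SOX2 transcript was thus under 1 TPM in the cells labelled as stem cells too. For GSCs the study reported staining of CD133, SOX2 and FABP7 by immunofluorescence, which reads protein and not RNA. CD133 was not among the 7 markers. FABP7 was at 4.91 TPM in GSCs, 0.73 TPM in U87 and 2.86 TPM in Diff cells. GSCs replicate 3 stood apart from the other 2 GSC libraries for LAMP2, SCARB2, ATP6V1A, LIPA and IDUA, whose GSC values are given per library.

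Of the 41 genes, 38 had a mean over 1 TPM across the 9 libraries and were tested. CTSZ, a carboxypeptidase of the cathepsin family, lay between 0.21 and 0.48 TPM, and CLN3, the membrane protein mutated in juvenile Batten disease, between 0.22 and 0.66 TPM. ATP6V0C, which encodes the subunit that forms the rotor ring of the pump, reached at most 0.58 TPM and was listed at 0 in 3 libraries. GENCODE 29 places 72.1% of the exon bases of ATP6V0C and 25.2% of those of CLN3 inside exons of another gene on the same strand. The settings of read counting for such shared bases are not given in the sources used here, and their part in these low values was not tested.

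Transcripts of the 41 genes took up a larger share of the total in GSCs and in Diff cells than in U87. Their summed level was 2588 to 2889 TPM in the 3 U87 libraries, 5259 to 5479 TPM in GSCs and 6184 to 6322 TPM in Diff cells, with no overlap between the groups. Within U87, replicate 3 had the lowest sum, at 2588 TPM beside 2811 and 2889 TPM. The mean sums were 1.94 times that of U87 in GSCs and 2.26 times in Diff cells. CTSK, GPNMB, PSAP and TPP1 made up most of the gain. In GSCs they accounted for 21.2%, 17.4%, 18.9% and 14.7% of it, and in Diff cells for 14.7%, 18.8%, 31.6% and 5.76%. Without these 4 genes, picked after their values were seen, the other 37 summed to 1974 to 2153 TPM in U87, 2790 to 2819 TPM in GSCs and 3082 to 3111 TPM in Diff cells, which is 1.35 and 1.48 times the U87 mean. The number of the tested genes with a mean over 100 TPM was 7 in U87, 12 in GSCs and 13 in Diff cells. In bulk RNA, more cells that express a gene and more transcript per cell cannot be told apart.

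**Figure D1:**
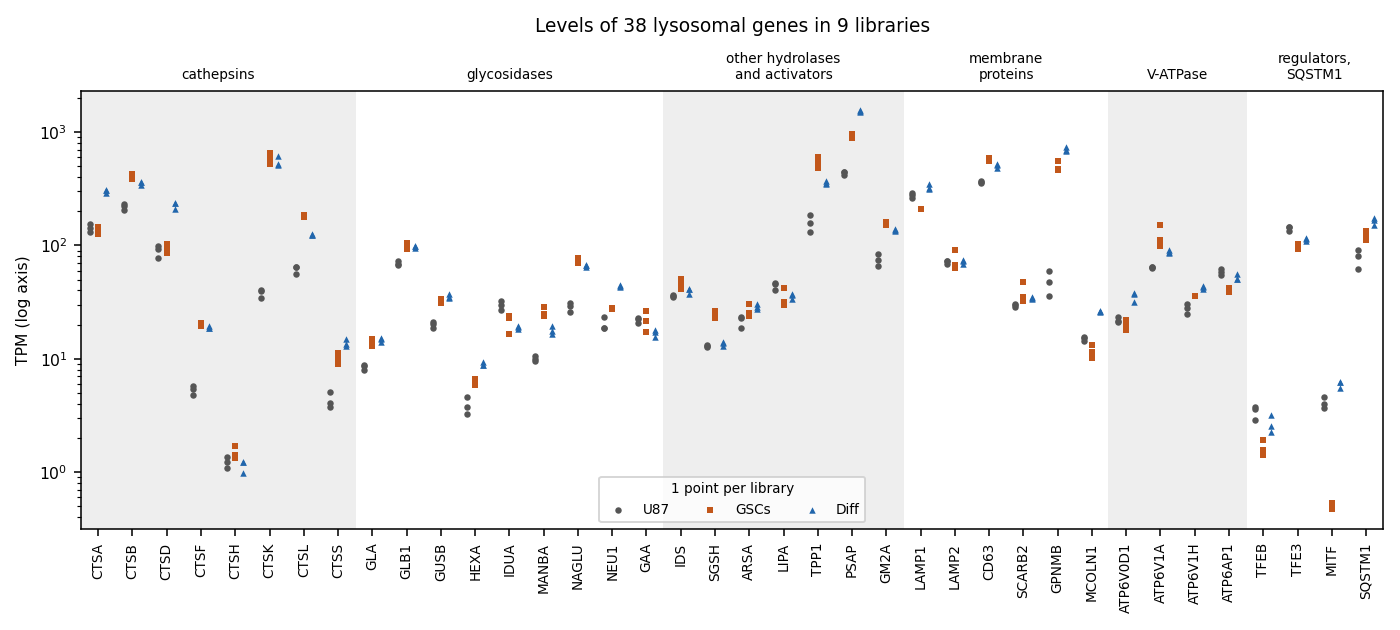
Level of each of the 38 tested lysosomal genes in TPM on a log axis, with 1 point for each of the 9 libraries and the genes ordered by role. CTSK and GPNMB stand far above their U87 points in both other groups, PSAP is the most abundant, and MITF drops below 1 TPM in GSCs alone.

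GSCs were compared with U87 to see how the irradiated stem cells differ from the parental line. Of the 38 tested genes, 23 were higher in GSCs and 8 lower at an adjusted p under 0.05 (limma, Benjamini-Hochberg over 22909 genes), where 25.3% of every gene tested was called higher and 23.3% lower. With a log2 fold change beyond 1 in addition, 10 were higher and 1 was lower, where 9.52% and 7.53% of every gene tested were called. The 10 were CTSF, CTSK, CTSL, CTSS, MANBA, NAGLU, TPP1, PSAP, GM2A and GPNMB, and the gene that fell was MITF. CTSS lay just under the fold threshold without GSCs replicate 3 or U87 replicate 3, and GM2A without U87 replicate 3, at a log2 fold change of 0.99 each. The median log2 fold change of the 38 genes was 0.46, beside 0.02 over every gene tested, and 27 of the 38 lay above 0. SCARB2 and LIPA were called by a narrow margin, with adjusted p values of 0.0454 and 0.0366. The call of SCARB2 was lost without any 1 of the libraries other than GSCs replicates 2 and 3, at adjusted p values from 0.0524 to 0.115. That of LIPA was lost without GSCs replicate 1 or 2, U87 replicate 1 or 2, or Diff replicate 1 or 3, at adjusted p values from 0.0513 to 0.112.

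Diff cells were compared with U87 to see how the differentiated radioresistant cells differ from parental cells in the same medium. Here 27 genes were higher and 2 lower at an adjusted p under 0.05, where 18.9% and 20.5% of every gene tested were called. With the fold threshold, 12 were higher and none was lower, where 5.92% and 6.36% of every gene tested were called, and the lowest log2 fold change of the set was -0.61. The 12 were CTSA, CTSD, CTSF, CTSK, CTSS, HEXA, NAGLU, NEU1, TPP1, PSAP, GPNMB and SQSTM1. Without U87 replicate 3, HEXA and SQSTM1 lay under the fold threshold, at 0.96 and 0.93. The median log2 fold change was 0.68, beside -0.04 over every gene tested, and 31 of the 38 lay above 0. The 2 genes that fell were IDUA and TFE3, and GAA and LIPA joined them when GSCs replicate 3 was left out, which made 4. Calls were lost for ARSA without Diff replicate 1 or U87 replicate 3 (adjusted p 0.0634 and 0.0605), for MITF without Diff replicate 1 or 2 or U87 replicate 1 or 2 (0.0542 to 0.061), and for ATP6V1A without any 1 of the U87 or Diff libraries (0.0517 to 0.0731). Both comparisons with U87 use the same 3 U87 libraries, so what they share is not independent.

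**Figure D2:**
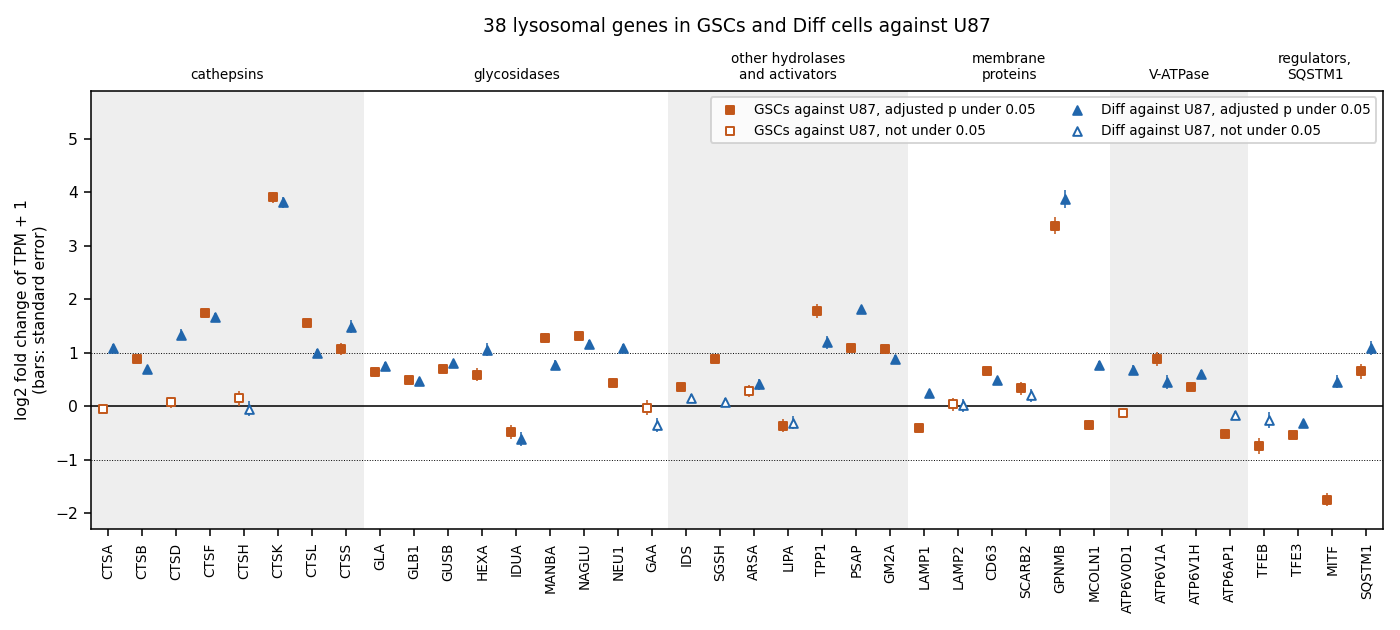
Log2 fold change of TPM + 1 against U87 for the 38 tested genes, in GSCs (squares) and Diff cells (triangles), with standard errors as bars. Filled symbols passed an adjusted p of 0.05 and dotted lines mark a log2 fold change of 1 in either direction; CTSA and CTSD pass the upper line in Diff cells alone, and MITF lies below the lower line in GSCs.

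Diff cells were compared with GSCs to see how the cells differ after transfer to serum, differentiation and selection out of clonal communities. Here 16 genes were higher in Diff cells and 7 lower, where 15% and 19.8% of every gene tested were called. With the fold threshold, 4 were higher and none was lower, where 2.66% and 5.36% of every gene tested were called, and the lowest log2 fold change was -0.81. The 4 were CTSA, CTSD, MCOLN1 and MITF. The median log2 fold change was 0.08, beside -0.06 over every gene tested, and 20 of the 38 lay above 0. These counts moved with single libraries. The number higher was 10 without GSCs replicate 1, and the number lower was 4 without Diff replicate 1, Diff replicate 2 or GSCs replicate 1, and 10 without GSCs replicate 3. The 4 calls past the fold threshold were made without each library in turn. Over every gene tested, Diff cells were higher for 3447 and lower for 4535 as deposited, and quantile normalization turned this to 4391 higher and 3714 lower.

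Set side by side, the comparisons with U87 called 20 of the 38 genes higher in each. Of every gene tested, 25.3% were called higher in GSCs and 18.9% in Diff cells. The share called higher in both was not computed, nor were shares for the other patterns below, so these counts describe the set alone. LAMP1, MCOLN1 and MITF were called lower in GSCs and higher in Diff cells, and IDUA and TFE3 lower in each. For the genes called against U87 in a single group, the test between Diff cells and GSCs shows whether these differed. CTSA, CTSD and ATP6V0D1, called higher in Diff cells, also exceeded GSCs, and SGSH, called higher in GSCs, exceeded Diff cells. ATP6AP1 and TFEB, called lower in GSCs, lay below Diff cells. ARSA, IDS, SCARB2 and LIPA were called in 1 group, but the step between Diff cells and GSCs did not pass, at adjusted p values of 0.468, 0.0669, 0.444 and 0.764. CTSH, GAA and LAMP2 passed in neither comparison with U87. The group with the highest mean was GSCs for 16 genes, Diff cells for 16 and U87 for 6, a split not computed over every gene tested.

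The cathepsins are the proteases of the lysosome. Of the 8 tested, 5 were higher in GSCs and 7 in Diff cells than in U87, and none was lower. Over every gene tested, 25.3% were called higher and 23.3% lower in GSCs, and 18.9% and 20.5% in Diff cells. CTSK, the cysteine protease that osteoclasts release to dissolve bone collagen, had the largest fold change of the whole set in GSCs (gene at chromosome 1, 150796208 to 150808323, minus strand, GRCh38). Its level was 39.5, 40.7 and 34.6 TPM in U87, 587, 524 and 652 TPM in GSCs, and 612, 513 and 523 TPM in Diff cells. Each library of GSCs and Diff cells was more than 10 times above each U87 library, and GSCs and Diff cells overlapped. The log2 fold change was 3.90 ± 0.10 (standard error; adjusted p 3.04e-08) in GSCs and 3.81 ± 0.10 (adjusted p 4.99e-08) in Diff cells, and -0.09 ± 0.10 (adjusted p 0.519) between Diff cells and GSCs.

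CTSF, a cysteine protease that trims the invariant chain in macrophages, lay at 5.72, 5.43 and 4.77 TPM in U87, 19.4, 20.8 and 20.1 TPM in GSCs and 19.6, 18.8 and 18.6 TPM in Diff cells. It rose by 1.74 ± 0.08 in GSCs and 1.67 ± 0.08 in Diff cells on the log2 scale. CTSS, an elastolytic cysteine protease that remains active at neutral pH, was 5.04, 4.10 and 3.75 TPM in U87, 9.93, 9.04 and 11.3 TPM in GSCs, and 14.97, 13.4 and 13.0 TPM in Diff cells. The 3 groups of CTSS did not overlap, and the rise was 1.07 ± 0.12 in GSCs (adjusted p 1.09e-04) and 1.49 ± 0.12 in Diff cells (adjusted p 2.02e-05). CTSL, a broad endopeptidase, followed another order. It was 65.1, 64.2 and 55.8 TPM in U87, 185, 178 and 182 TPM in GSCs, and 126, 123 and 124 TPM in Diff cells, so that Diff cells lay between the other 2 groups without overlap. Its log2 fold change was 1.55 ± 0.06 in GSCs and 1.00 ± 0.06 in Diff cells, the latter just short of the fold threshold, and CTSL fell by 0.55 ± 0.06 from GSCs to Diff cells (adjusted p 2.55e-04).

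CTSA and CTSD rose in Diff cells and did not pass the test in GSCs. CTSA, the serine carboxypeptidase that also protects beta-galactosidase and neuraminidase within a complex, was 143, 154 and 132 TPM in U87, 141, 145 and 125 TPM in GSCs, and 311, 310 and 287 TPM in Diff cells. U87 and GSCs overlapped, at a log2 fold change of -0.06 ± 0.08 (adjusted p 0.555), while Diff cells exceeded U87 by 1.08 ± 0.08 and GSCs by 1.14 ± 0.08 (adjusted p 9.45e-06 and 1.43e-05). CTSD, the main aspartic protease of the lysosome, was 92.6, 98.6 and 78.0 TPM in U87, 85.8, 103 and 92.8 TPM in GSCs, and 211, 236 and 234 TPM in Diff cells. Its log2 fold change was 0.07 ± 0.10 (adjusted p 0.613) in GSCs and 1.34 ± 0.10 (adjusted p 1.23e-05) in Diff cells, and it rose by 1.27 ± 0.10 from GSCs to Diff cells (adjusted p 3.20e-05). CTSD shares 41.7% of its exon bases with the readthrough gene model AC068580.4 on the same strand, which itself was at a mean of 4.27 TPM. Of the exon bases of CTSA, 28.5% lie opposite other genes. NEURL2, at a mean of 1.86 TPM, covers 17.7% of the CTSA exon bases, and PLTP, at a mean of 516 TPM, covers 3.42%. CTSB, a cysteine protease with endo- and exopeptidase activity, rose from a mean of 219.9 TPM in U87 to 407 TPM in GSCs and 354 TPM in Diff cells. CTSH, an aminopeptidase, stayed between 0.99 and 1.68 TPM in the 9 libraries and passed in no comparison.

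The glycosidases remove sugars from glycoproteins, glycolipids and glycosaminoglycans. Of the 9, 7 were higher and 1 was lower both in GSCs and in Diff cells. The shares of every gene tested were 25.3% higher and 23.3% lower in GSCs, and 18.9% and 20.5% in Diff cells. NAGLU, an enzyme of heparan sulfate breakdown, was 31.2, 29.3 and 26.1 TPM in U87, 70.9, 77.7 and 70.3 TPM in GSCs, and 64.3, 66.8 and 66.8 TPM in Diff cells. It rose by 1.31 ± 0.07 in GSCs and 1.17 ± 0.07 in Diff cells on the log2 scale. MANBA, the beta-mannosidase, was 9.93, 10.6 and 9.46 TPM in U87, 24.7, 23.9 and 28.8 TPM in GSCs, and 19.4, 16.6 and 17.6 TPM in Diff cells. Its log2 fold change was 1.28 ± 0.09 in GSCs and 0.77 ± 0.09 in Diff cells, with a fall by 0.51 ± 0.09 between them (adjusted p 0.00321), and the 3 groups did not overlap.

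HEXA and NEU1 had their highest levels in Diff cells. HEXA, the alpha subunit of the hexosaminidase lost in Tay-Sachs disease, was 3.74, 4.60 and 3.27 TPM in U87, 5.89, 6.57 and 6.34 TPM in GSCs, and 8.88, 8.84 and 9.45 TPM in Diff cells. The log2 fold change of HEXA was 0.59 ± 0.12 in GSCs (adjusted p 0.00293) and 1.05 ± 0.12 in Diff cells (adjusted p 1.25e-04). NEU1, the neuraminidase that works in complex with the CTSA protein, was 18.5, 23.4 and 18.8 TPM in U87, 27.3, 27.7 and 28.0 TPM in GSCs, and 42.6, 43.7 and 44.8 TPM in Diff cells. NEU1 rose by 0.44 ± 0.09 in GSCs, by 1.08 ± 0.09 in Diff cells, and by 0.64 ± 0.09 from GSCs to Diff cells (adjusted p 6.32e-04). Neither gene's groups overlapped.

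Smaller rises were seen for GLA, GLB1 and GUSB. GLA, the alpha-galactosidase, rose by 0.63 ± 0.08 in GSCs and 0.74 ± 0.08 in Diff cells. GLB1, the beta-galactosidase whose activity is read in senescence assays, rose by 0.49 ± 0.05 and 0.48 ± 0.05. GUSB, the beta-glucuronidase that is often used as a reference gene, rose by 0.69 ± 0.07 and 0.80 ± 0.07. IDUA, the iduronidase, was the glycosidase that fell, by 0.49 ± 0.13 in GSCs (adjusted p 0.0113) and 0.61 ± 0.13 in Diff cells (adjusted p 0.00446). It was 26.8 to 32.2 TPM in U87, 22.7, 23.6 and 16.7 TPM in GSCs, with replicate 3 the lowest, and 18.2 to 19.4 TPM in Diff cells. GAA, the acid alpha-glucosidase, did not pass in any comparison, at means of 21.9, 21.8 and 16.9 TPM in U87, GSCs and Diff cells.

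Among the sulfatases, lipid and peptide hydrolases and activators, 5 of 7 were higher and 1 was lower in GSCs. In Diff cells 4 were higher and none was lower. Beside this, 25.3% of every gene tested was called higher and 23.3% lower in GSCs, and 18.9% and 20.5% in Diff cells. PSAP encodes prosaposin, which is cut into the 4 saposins that present sphingolipids to their hydrolases, and it was the most abundant transcript of the set (chromosome 10, 71816298 to 71851375, minus strand). It measured 443, 448 and 414 TPM in U87, 923, 968 and 880 TPM in GSCs, and 1543, 1550 and 1507 TPM in Diff cells. The 3 groups of PSAP did not overlap, and the log2 fold change was 1.09 ± 0.06 in GSCs (adjusted p 8.90e-07) and 1.82 ± 0.06 in Diff cells (adjusted p 9.07e-08).

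TPP1, the tripeptidyl peptidase lost in a late infantile form of Batten disease (chromosome 11, 6612763 to 6619485, minus strand), measured 156, 187 and 130 TPM in U87, 545, 477 and 597 TPM in GSCs, and 353, 349 and 372 TPM in Diff cells. TPP1 thus had the order of CTSL and MANBA, with the highest level in GSCs, and it rose by 1.78 ± 0.13 in GSCs and 1.19 ± 0.13 in Diff cells, with a fall by 0.59 ± 0.13 between them (adjusted p 0.00777). GM2A, the activator that lifts GM2 ganglioside out of the membrane for the hexosaminidase, was 73.9, 83.3 and 66.0 TPM in U87, 157, 152 and 162 TPM in GSCs, and 134, 138 and 140 TPM in Diff cells. Its rise was 1.07 ± 0.08 in GSCs and 0.88 ± 0.08 in Diff cells. SGSH, the heparan N-sulfatase, was raised in GSCs, at 22.7 to 26.4 TPM beside 13.0, 13.3 and 12.6 TPM in U87, and fell back to 14.1, 13.8 and 12.9 TPM in Diff cells. The fall of SGSH by 0.81 ± 0.07 was the largest of the set between Diff cells and GSCs (adjusted p 7.49e-05). IDS, the iduronate sulfatase, rose by 0.36 ± 0.08 in GSCs. LIPA, the acid lipase that frees cholesterol from its esters, was 40.5 to 47.0 TPM in U87 and 31.9, 29.7 and 42.2 TPM in GSCs, where replicate 3 reached into the range of U87. ARSA, the arylsulfatase A, rose by 0.40 ± 0.11 in Diff cells (adjusted p 0.0187).

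**Figure D3:**
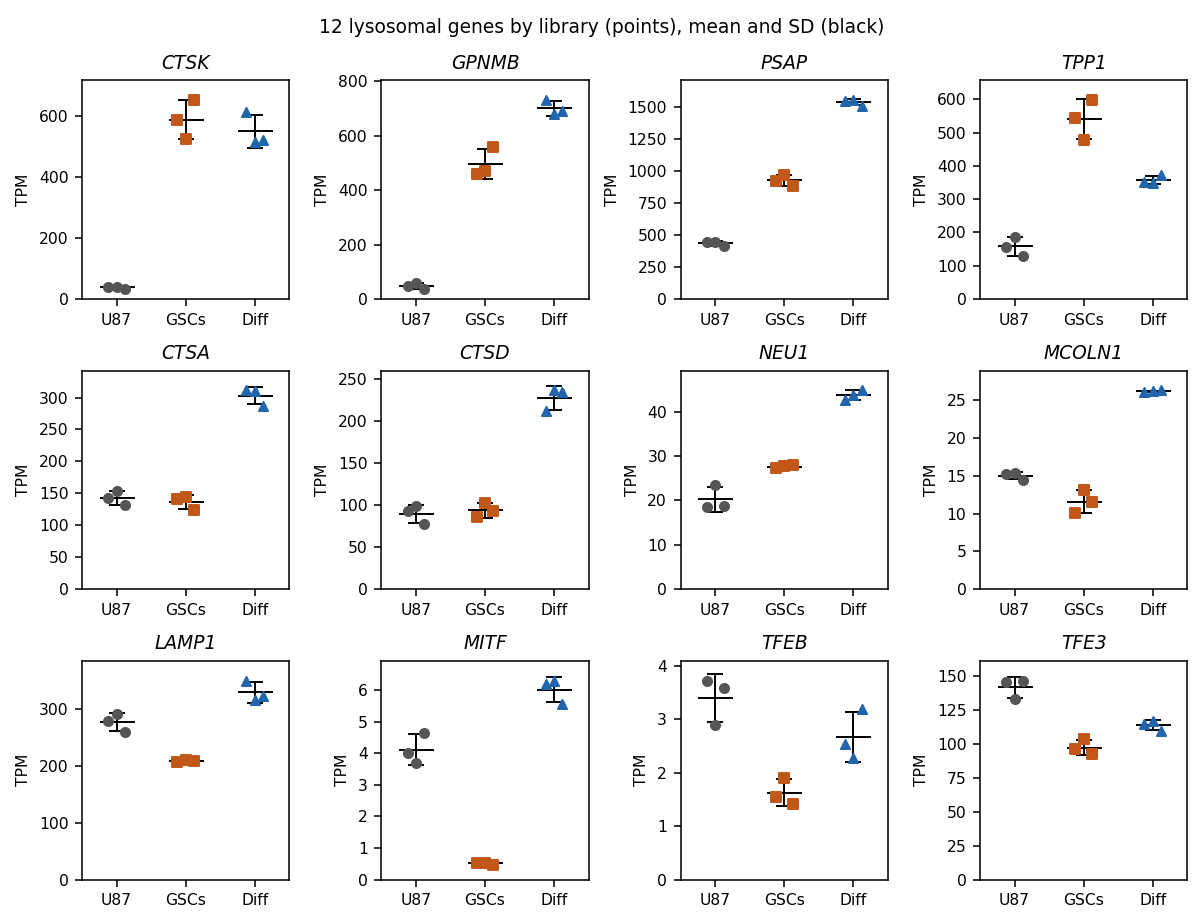
TPM of 12 lysosomal genes in each library (points), with group mean and SD (n = 3) in black and each axis starting at 0. The upper row holds the genes that carried most of the summed gain, CTSA, CTSD and MCOLN1 are highest in Diff cells with U87 and GSCs lower, and MITF, TFEB and TFE3 are lowest in GSCs.

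Membrane proteins of the lysosome moved in different directions in GSCs. Of 6 tested, 3 were higher and 2 lower in GSCs, where 25.3% and 23.3% of every gene tested were called. In Diff cells 4 were higher and none was lower, where 18.9% and 20.5% of every gene tested were called. GPNMB, a glycoprotein of melanosomes and lysosomes that is also found on the surface of glioma cells, was 47.9, 59.9 and 35.8 TPM in U87, 461, 471 and 560 TPM in GSCs, and 731, 680 and 693 TPM in Diff cells (gene at chromosome 7, 23235967 to 23275108, plus strand, GRCh38). The 3 groups did not overlap. GPNMB rose by 3.37 ± 0.16 in GSCs (adjusted p 6.35e-07) and by 3.87 ± 0.16 in Diff cells (adjusted p 4.95e-07), while its step of 0.50 ± 0.16 from GSCs to Diff cells was called at an adjusted p of 0.0412 and was lost without U87 replicate 1 or any 1 of the GSC libraries 1 and 2 or the Diff libraries (0.0601 to 0.116). CD63, a tetraspanin of late endosomes and exosomes, was 371, 354 and 365 TPM in U87, 589, 582 and 550 TPM in GSCs, and 483, 516 and 523 TPM in Diff cells. Its log2 fold change was 0.66 ± 0.05 in GSCs and 0.48 ± 0.05 in Diff cells.

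LAMP1 and LAMP2 encode the most abundant glycoproteins of the lysosomal membrane. LAMP1 was 280, 293 and 260 TPM in U87, 208, 210 and 209 TPM in GSCs, and 351, 317 and 323 TPM in Diff cells. It fell by 0.41 ± 0.06 in GSCs (adjusted p 4.47e-04) and rose by 0.25 ± 0.06 in Diff cells (adjusted p 0.00874). LAMP2 was 68.4 to 73.2 TPM in U87, 67.2, 63.5 and 90.3 TPM in GSCs and 68.4 to 74.1 TPM in Diff cells, and no comparison passed. MCOLN1, the calcium channel through which lysosomes signal to calcineurin and TFEB, was 15.2, 15.4 and 14.5 TPM in U87, 10.1, 13.1 and 11.5 TPM in GSCs, and 26.1, 26.1 and 26.3 TPM in Diff cells. The groups of MCOLN1 did not overlap. It fell by 0.36 ± 0.09 in GSCs (adjusted p 0.0101), rose by 0.76 ± 0.09 in Diff cells (adjusted p 1.90e-04) and by 1.12 ± 0.09 from GSCs to Diff cells (adjusted p 3.65e-05). SCARB2, the receptor that carries beta-glucocerebrosidase to the lysosome, was 28.7 to 30.5 TPM in U87, 34.96, 32.5 and 47.1 TPM in GSCs and 33.5 to 35.3 TPM in Diff cells.

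The V-ATPase pumps protons into the lysosome and couples amino acid supply to mTORC1. None of its 4 tested genes passed the fold threshold. Against U87, 9.52% of every gene tested passed it as higher and 7.53% as lower in GSCs. In Diff cells these shares were 5.92% and 6.36%. ATP6V1A, the catalytic subunit, was 63.4 to 65.1 TPM in U87, 112, 98.5 and 152 TPM in GSCs and 85.4 to 91.7 TPM in Diff cells. The rise of ATP6V1A in GSCs was 0.87 ± 0.13 (adjusted p 6.55e-04) and ran from 0.70 to 1.01 when libraries were left out in turn. ATP6V1H, a regulatory subunit, rose by 0.36 ± 0.07 in GSCs and 0.61 ± 0.07 in Diff cells. ATP6V0D1, a subunit that links the rotor to the membrane ring, was 23.2, 21.3 and 21.2 TPM in U87, 17.9, 21.9 and 19.8 TPM in GSCs, and 31.9, 37.3 and 37.7 TPM in Diff cells. ATP6V0D1 had the pattern of CTSA and CTSD, at -0.14 ± 0.09 in GSCs (adjusted p 0.264) and 0.68 ± 0.09 in Diff cells (adjusted p 4.78e-04). ATP6AP1, an accessory subunit needed for assembly of the pump, fell by 0.53 ± 0.07 in GSCs (adjusted p 1.95e-04) and was at -0.16 ± 0.07 in Diff cells (adjusted p 0.0916).

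All 3 transcription factors were lower in GSCs than in U87, where 23.3% of every gene tested was called lower. TFEB was 3.73, 2.90 and 3.60 TPM in U87, 1.56, 1.91 and 1.41 TPM in GSCs, and 2.54, 2.28 and 3.20 TPM in Diff cells. It fell by 0.75 ± 0.15 in GSCs (adjusted p 0.00337), was at -0.27 ± 0.15 in Diff cells (adjusted p 0.206), where U87 and Diff cells overlapped, and rose by 0.48 ± 0.15 from GSCs to Diff cells (adjusted p 0.038). TFE3 was the most abundant of the 3, at 145, 133 and 146 TPM in U87, 96.1, 103 and 92.4 TPM in GSCs, and 115, 117 and 109 TPM in Diff cells. TFE3 fell by 0.54 ± 0.06 in GSCs (adjusted p 1.08e-04) and by 0.31 ± 0.06 in Diff cells (adjusted p 0.00334).

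MITF, the factor that directs pigment cells and osteoclasts (chromosome 3, 69739435 to 69968337, plus strand), was 4.01, 3.69 and 4.64 TPM in U87, 0.53, 0.53 and 0.47 TPM in GSCs, and 6.18, 6.30 and 5.56 TPM in Diff cells. MITF in GSCs was 0.124 times the U87 mean, and in Diff cells 11.8 times the GSC mean. Its log2 fold change was -1.76 ± 0.12 in GSCs (adjusted p 5.39e-06), 0.46 ± 0.12 in Diff cells (adjusted p 0.0161), and 2.21 ± 0.12 between Diff cells and GSCs (adjusted p 4.73e-06). A smaller pseudocount of 0.1 widened the first and the last of these to -2.78 and 3.33. SQSTM1, the receptor that hands ubiquitinated cargo to autophagosomes, was 81.3, 90.8 and 61.4 TPM in U87, 119, 133 and 112 TPM in GSCs, and 152, 174 and 167 TPM in Diff cells. SQSTM1 rose by 0.65 ± 0.14 in GSCs (adjusted p 0.00384) and by 1.09 ± 0.14 in Diff cells (adjusted p 2.56e-04), without overlap between the groups.

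Of the 16 genes higher in Diff cells than in GSCs, 7 lost the call when libraries were left out in turn, namely CTSS, HEXA, GPNMB, ATP6V1H, SQSTM1, TFEB and TFE3. The call of HEXA was lost only without Diff replicate 3 (adjusted p 0.0525). CTSS was lost without Diff replicate 1 or 2 or GSCs replicate 1 or 2 (0.0601 to 0.0889), and SQSTM1 without Diff replicate 2 or 3 or GSCs replicate 1 or 3 (0.0861 to 0.103). ATP6V1H was lost without Diff replicate 2 or 3 or GSCs replicate 1 or 2 (0.0551 to 0.086), and TFE3 without Diff replicate 1 or 2 or GSCs replicate 1 (0.061 to 0.0741). TFEB was lost without Diff replicate 1 or 3, GSCs replicate 1 or 3, or U87 replicate 1 or 3 (0.0544 to 0.132). Among the 7 that were lower, CTSB, CD63 and ATP6V1A also lost the call without single libraries, and CTSL, MANBA, SGSH and TPP1 did not.

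The element bound by the TFEB family was sought in promoters, because the genes with the largest rise from GSCs to Diff cells include known targets of that family. The windows run from 250 bases before to 50 bases after the start of each gene in RefSeq (GRCh38.p14), and 29 of the 41 genes had one. The hexamer CACGTG was searched on both strands. So were the heptamer TCACGTG, which contains it, and the octamer palindrome TCACGTGA, which contains both. TCACGTG was present in 9 of the 29 windows (31.0%) and in 22 of 92 windows of other lysosomal genes (23.9%). It was in 3.76% of all 27305 RefSeq windows searched and in 5.56% of the 11222 windows of genes tested. The octamer was in 6 of the 29 (20.7%), in 10 of the 92 (10.9%), and in 1.01% of all windows and 1.77% of those of genes tested. The hexamer was in 31.0%, 23.9%, 7.28% and 9.45%. The 9 genes were CTSA, CTSD, CTSF, CLN3, NEU1, GAA, LAMP1, MCOLN1 and ATP6V0D1. Matches are shown for the genes with a motif that rose from GSCs to Diff cells, and for CTSF and GAA, which did not pass, with CACGTG and 1 base on either side in capitals, in the direction of transcription.
CTSA, first match: gaggaagactgTCACGTGGcgccggagttc
CTSA, second match: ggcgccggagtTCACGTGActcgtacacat
CTSD: gccggccgcgcCCACGTGAccggtccgggt
MCOLN1, first match: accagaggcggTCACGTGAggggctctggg
MCOLN1, second match: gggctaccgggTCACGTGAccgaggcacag
ATP6V0D1: cccccttatggTCACGTGAggcgcttgcgc
LAMP1, match nearest to the start: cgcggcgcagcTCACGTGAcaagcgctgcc
NEU1: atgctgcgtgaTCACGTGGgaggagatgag
CTSF: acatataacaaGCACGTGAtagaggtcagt
GAA, first match: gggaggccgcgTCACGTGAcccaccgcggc

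The printed stretches lie at chr20:45891281-45891310 and chr20:45891298-45891327 for CTSA, chr11:1763957-1763986 for CTSD, chr19:7522571-7522600 and chr19:7522598-7522627 for MCOLN1, chr16:67481199-67481228 for ATP6V0D1, chr13:113297226-113297255 for LAMP1, chr6:31862930-31862959 for NEU1, chr11:66568712-66568741 for CTSF and chr17:80101493-80101522 for GAA. CTSA, MCOLN1, LAMP1 and GAA are on the plus strand and the others on the minus strand. In CTSD and CTSF the heptamer lies on the opposite strand. LAMP1 held 6 matches in its window. A match describes the letters in the window and is neither a shown binding site nor a cause.

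Genes of the set with TCACGTG in the window were mostly higher in Diff cells than in GSCs. Of the 8 tested, 6 were called higher and none lower, where 15% and 19.8% of every gene tested were called. Their median log2 fold change was 0.73, and the 2 that did not pass were CTSF at -0.08 and GAA at -0.33. Against U87, 7 of the 8 were higher in Diff cells at a median of 0.92, where 18.9% of every gene tested was. In GSCs 2 were higher and 2 lower at a median of -0.04, where 25.3% and 23.3% of every gene tested were called. Of the 18 tested genes whose window lacked the motif, 6 rose from GSCs to Diff cells and 3 fell, at a median of 0.02. Among the other lysosomal genes, 11 of 22 with the motif were higher and 1 was lower in that comparison at a median of 0.28, and 17 of 65 without it were higher and 16 lower at a median of 0.01. The 12 genes without a window, among them CTSK and PSAP, could not enter this comparison. The division by motif was made with these values known, and no test was run on it. The share called among all tested genes with the motif was not computed, so a part of the motif in these calls was not tested.

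Of 117 further lysosomal genes, written down by class from general knowledge, 111 were tested. In GSCs 59 were higher than in U87 and 14 lower, at a median log2 fold change of 0.33, which is 53.2% and 12.6% of them beside 25.3% and 23.3% of every gene tested. With the fold threshold, 20 of the 111 were higher and 4 lower, where 9.52% and 7.53% of every gene tested were called. In Diff cells 64 were higher and 9 lower, at a median of 0.39. These are 57.7% and 8.11% of the 111, beside 18.9% and 20.5% of every gene tested. Past the fold threshold were 22 and 3 (19.8% and 2.70%), beside 5.92% and 6.36% of every gene tested. Between Diff cells and GSCs 34 were higher (30.6%, beside 15% of every gene tested), at a median of 0.06 over the 111. The 21 that were lower made up 18.9%, near the 19.8% of every gene tested. Past the fold threshold were 2 and 1 (1.80% and 0.90%), below the 2.66% and 5.36% of every gene tested. The 55 calls at an adjusted p under 0.05 became 35 without Diff replicate 3. By class, 10 of 14 genes of enzyme sorting and maturation, 13 of 18 genes of nutrient sensing, 11 of 17 further V-ATPase genes, 20 of 38 hydrolases and activators and 10 of 24 membrane proteins were higher in Diff cells than in U87, where 18.9% of every gene tested was. The difference between classes was not tested.

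The largest rises outside the 41 genes were those of RRAGD and ATP6V0D2. RRAGD, a Rag GTPase that recruits mTORC1 to the lysosome, was 6.34, 6.71 and 3.31 TPM in U87, 66.4, 65.4 and 88.2 TPM in GSCs, and 78.9, 72.8 and 77.4 TPM in Diff cells, a rise of 3.56 ± 0.21 and 3.63 ± 0.21. ATP6V0D2, the isoform of the d subunit of the pump that is typical of osteoclasts, was 3.28, 3.58 and 1.64 TPM in U87, 40.8, 35.4 and 52.2 TPM in GSCs, and 42.6, 44.2 and 44.8 TPM in Diff cells. It rose by 3.54 ± 0.21 and 3.59 ± 0.21, beside the values of its ubiquitous counterpart ATP6V0D1 above. FNIP2, a partner of folliculin in the control of Rag GTPases, rose by 3.02 ± 0.10 in GSCs, and GNPTAB, which makes the mannose 6-phosphate tag on hydrolases, by 2.46 ± 0.12 in Diff cells.

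The genes that fell most were LAMTOR1, LGMN, SMPD1 and RRAGA. LAMTOR1, the anchor of the Ragulator complex on the lysosome, was 42.1 to 49.7 TPM in U87, 14.4 to 18.5 TPM in GSCs and 17.2 to 19.2 TPM in Diff cells, a fall by 1.44 ± 0.10 and 1.29 ± 0.10. LGMN, the asparaginyl endopeptidase legumain, fell by 1.29 ± 0.08 in GSCs and by 1.47 ± 0.08 in Diff cells. SMPD1, the acid sphingomyelinase, fell by 1.21 ± 0.09 in GSCs and was 1.08 ± 0.09 higher in Diff cells than in GSCs, while RRAGA, another Rag GTPase, fell by 1.24 ± 0.08 in Diff cells. ATP6V0E2, a small membrane subunit of the pump, rose by 1.14 ± 0.08 from GSCs to Diff cells, and HYAL1, a hyaluronidase, fell by 1.01 ± 0.15.

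Cathepsins, GPNMB and MITF are high in macrophages, osteoclasts and pigment cells, and markers of these cells were read beside them. Of 8 macrophage markers, CSF1R and CD68 had a mean over 1 TPM, TYROBP was listed at 0 in all 9 libraries, and PTPRC, AIF1 and CX3CR1 had means under 0.1 TPM in each group. Their sum was 16.2 to 19.6 TPM in U87, 7.28 to 7.98 TPM in GSCs and 11.2 to 14.1 TPM in Diff cells, most of it CSF1R at means of 14.98, 4.68 and 9.77 TPM in U87, GSCs and Diff cells. CD68 was at means of 2.48, 2.28 and 2.25 TPM and ITGAM at 0.03, 0.32 and 0.14 TPM in the same order. CD68 shares 81.7% of its exon bases with the gene model AC016876.2 on the same strand, and the part of this in its low values was not tested. Of 6 pigment cell markers, TYR was listed at 0 throughout and MLANA was at means of 4.76, 1.59 and 2.32 TPM in U87, GSCs and Diff cells. Their sum was 5.03 to 6.97 TPM in U87, 3.10 to 3.43 TPM in GSCs and 3.59 to 4.08 TPM in Diff cells. The 4 osteoclast markers summed to 17.9 to 21.7 TPM, 52.4 to 53.2 TPM and 67.6 to 76.6 TPM, nearly all of it ACP5, itself a lysosomal phosphatase, at means of 18.6, 52.0 and 71.7 TPM. The more specific osteoclast genes CALCR, OSCAR and DCSTAMP had means of at most 1.05 TPM in each group. The part of such cells in the values above was not tested beyond these levels.

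Some stretches of chromosomes move together in these cells, so each gene was set beside its 25 nearest tested genes on either side. Over the 38 genes, the median log2 fold change of the neighbours ran from -0.28 to 0.71 in GSCs and from -0.45 to 0.55 in Diff cells. The highest values belonged to GUSB on chromosome 7, whose own 0.69 in GSCs and 0.80 in Diff cells stood beside neighbours at 0.71 and 0.55. GPNMB, also on chromosome 7, had neighbours at 0.52 in each comparison and exceeded all 50 of them, and CTSK exceeded all 50 of its neighbours, whose medians were 0.03 and -0.10. The part of such stretches in the change of GUSB and GPNMB was not tested.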

How the data were processed

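RNA-seq of U87, GSCs and Diff cells was analysed, with 3 libraries per cell type. The table the authors deposited holds log2(TPM + 1) values of single libraries, made with FastQC 0.11.9, Trimmomatic 0.39, HISAT2 2.2.1, featureCounts 2.0.5 and R 4.2.0 on GRCh38 according to the sample records. The annotation, the strand setting and the treatment of reads over overlapping genes are not given in the sources used here, and TPM hold no read depth.

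Genes with a mean over 1 TPM (22909 of 60606) entered a linear model of all 9 libraries in limma 3.58.1 (R 4.3.3), fitted by lmFit and moderated by eBayes with a trend on the mean level, with Benjamini-Hochberg adjustment within each of 3 comparisons. Calls were made at an adjusted p under 0.05, alone or with an absolute log2 fold change over 1. Folds are on the log2(TPM + 1) scale, which understates the change of low genes. The code was also tested on simulated data. The 41 genes and all lists were chosen with earlier results of these data known.

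Library values are given for genes past the fold threshold in any comparison, for the 5 with the highest mean level, for TFEB, TFE3 and MITF, and, chosen after their values were seen, for SGSH, LAMP1, ATP6V0D1 and genes in which 1 library stood apart. Of the other lysosomal genes, those named are the up to 3 with the largest change past the fold threshold, for each direction of each comparison. Positions, shared exon bases and neighbours come from GENCODE 29 on GRCh38, and promoters from RefSeq on GRCh38.p14. Alternatives covered the pseudocount, filter, scaling, libraries in the fit, trend, replicate block and the omission of each library.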

Additional observations from a re-analysis of the deposited data

How the results depend on the processing

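With 3 libraries per group and no read depth, small changes rest on the spread between libraries alone. An adjusted p under 0.05 held in each of the 19 alternatives that tested the gene for 29 of the 31 genes called between GSCs and U87, 26 of 29 between Diff cells and U87, and 13 of 23 between Diff cells and GSCs, and no called gene turned its direction. MITF and TFEB were not tested with the filter at 5 TPM. Calls with the fold threshold ran from 9 to 12 between GSCs and U87 and from 10 to 13 between Diff cells and U87, with CTSS, GM2A, HEXA and SQSTM1 lost without single libraries and CTSL gained between Diff cells and U87 under 9 alternatives. The cause of the shifts that follow was not tested unless the setting itself gives it. Fewer or more low genes in the median gave 0.36 without a filter and 0.59 with a filter at 5 TPM for GSCs against U87, and 0.61 and 0.74 for Diff cells against U87, and the first median ran from 0.43 to 0.53 as libraries were left out. For Diff cells against U87, 4 genes were lower in a fit of the 6 libraries compared, and 2 to 4 as libraries were left out. For Diff cells against GSCs, rescaling without RN7SL1 and mitochondrial genes gave 4 lower genes and a median of 0.15, limma without a trend gave 4 lower genes, and leaving out libraries gave 10 to 16 higher genes, 4 to 10 lower genes and 35 to 53 other lysosomal genes called.

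Directions turned only in comparisons that the gene had not passed. Between GSCs and U87, leaving out libraries moved CTSA from -0.12 to 0.0055, CTSD from -0.029 to 0.14, GAA from -0.17 to 0.12 and LAMP2 from -0.12 to 0.13. Between Diff cells and U87, CTSH ran from -0.10 to 0.0014 and reached 0.030 with quantile normalization, and LAMP2 ran from -0.015 to 0.050. Between Diff cells and GSCs, GLB1 ran from -0.049 to 0.029, LIPA from -0.043 to 0.20, LAMP2 from -0.11 to 0.14 and SCARB2 from -0.24 to 0.026, with GLB1 at 0.042 and 0.049 and LAMP2 at 0.039 and 0.046 under median-ratio scaling and under rescaling.

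No pairing by replicate number was visible in the values. The 9 pairs of libraries with the same number had correlations of their deviations from the group means of -0.0416 to 0.0489. Pairs with different numbers ran from -0.0575 to 0.0535. Whether libraries with the same number were prepared together cannot be decided from these values. With the replicate block, the counts of higher and lower genes were 23 and 7 for GSCs against U87, 27 and 2 for Diff cells against U87, and 14 and 6 for Diff cells against GSCs.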
